A study of Zea mays with 12 samples.

Results

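The storage globulin and vicilin genes were the genes whose description in the deposited table named a vicilin, globulin-1 or globulin-2. They numbered 6 of the 33589 genes in the table: glb2, glb1, LOC103639475, LOC103648676, LOC103628882 and LOC103636310. Of these, 5 passed the expression filter (3 or more libraries at an FPKM of 0.5 or above) and were tested among 22985 genes. FPKM is a fragment count scaled to transcript length and library size, so levels of different genes can be set side by side on it. LOC103636310 did not pass and is described by its counts.

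Messenger RNA was sequenced from maize embryos of 2 inbred lines. Line 102 (Ji853) was chosen by the study as low-temperature sensitive, and line 55 (Zao8-3) as resistant. Seeds of both lines were imbibed for 6 h at 25 °C and then kept for 2 h at 10 °C (LT_102 and LT_55) or at 25 °C (CT_102 and CT_55), with 3 biological replicates per group. The lines differ in their whole genetic background, so no single allele separates them, and each line is 1 genotype. The question was how transcript levels differed between the lines at each temperature (LT_102vsLT_55, CT_102vsCT_55) and between the temperatures in each line (LT_102vsCT_102, LT_55vsCT_55).

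Vicilins are trimeric storage proteins of the 7S globulin class that are laid down in protein storage vacuoles during seed filling and broken down by proteases after germination to feed the seedling. In maize they are proteins of the embryo and aleurone, with glb1 and glb2 coding for the main ones, whereas zeins fill the starchy endosperm. Transcription of glb1 in the developing embryo depends on abscisic acid and on VP1, the maize counterpart of ABI3. The transcripts measured here were those present after a few hours of imbibition, and a transcript kept from the dry seed cannot be told apart from one made during imbibition.

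Library totals ranged over 47148886 to 57342460 counts in LT_102, 57292988 to 67873652 in LT_55, 54895048 to 56961402 in CT_102 and 44028579 to 57433166 in CT_55, and no 2 libraries held identical values. The embryo label was checked with marker lists. None of the lists was chosen to mark the aleurone, so the presence of aleurone with the embryos was not tested. The 5 oleosin genes, which coat embryo oil bodies, summed to 4846 to 5222 FPKM in LT_102, 4838 to 5565 in LT_55, 5556 to 6398 in CT_102 and 4766 to 5699 in CT_55. The 29 zein genes, which mark endosperm, summed to 3.02 to 7.36 FPKM in LT_102, 27.1 to 36.3 in LT_55, 1.51 to 2.10 in CT_102 and 25.4 to 43.3 in CT_55, so zein transcripts were low everywhere and higher in line 55. The number of zein genes with no count in any library of the group was 9 in LT_102, 3 in LT_55, 14 in CT_102 and 2 in CT_55. A further 3 endosperm genes, found by symbol, summed to 2.57 to 3.85 FPKM in LT_102 and 1.55 to 2.53 in LT_55. At 25 °C the order was reversed, with 2.27 to 2.55 FPKM in CT_102 and 2.95 to 4.88 in CT_55. They thus did not share the zein direction at both temperatures. The 3 transfer layer genes of the endosperm summed to at most 0.0323 FPKM in any library. The 22 late embryogenesis abundant genes of the embryo summed to 13881 to 15716 FPKM. The part of the zein difference in the results that follow was not tested. Whole embryos were measured, so fewer cells of a type and less RNA per cell cannot be told apart.

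The members lay on 5 chromosomes of B73 RefGen_v4. The glb2 gene (globulin 2 precursor) spanned chr1:292247370-292249340 on the minus strand and glb1 (globulin-1 S allele precursor) spanned chr1:262991901-262994314 on the plus strand. A further 2 genes were described as globulin-1 S allele-like: LOC103648676 at chr2:59829793-59835798, whose model carries a low-quality flag, and LOC103628882 at chr5:216944474-216945464, both on the plus strand. LOC103639475 (chr9:151547409-151550013, minus strand) was described as vicilin-like seed storage protein At2g18540, after an Arabidopsis protein. LOC103636310 (chr8:164255916-164257867, plus strand) was described as basic 7S globulin 2. Its annotation was aspartic-type endopeptidase activity and proteolysis, so it is in the list by its name. Among the members only glb1 was annotated with nutrient reservoir activity. The glb1, LOC103648676 and LOC103628882 transcripts share a description, and how reads that match more than 1 of them were counted is not given in the sources used here, so the division of counts between these 3 genes is uncertain. Reads of both lines were counted on gene models of B73, which is neither line. The part of sequence or copy differences from B73 in the line differences of the members was not tested.

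In all 12 libraries glb2 and glb1 were among the most abundant transcripts of the embryo. Across the libraries glb2 ranked between 2 and 5 among all genes by FPKM. The rank of glb1 was 2 to 7 in LT_102, 12 to 22 in LT_55, 4 in each CT_102 library and 14 to 23 in CT_55. Together the 6 genes took 3.59%, 3.56% and 4.26% of all counts in LT_102, 3.02%, 2.76% and 3.08% in LT_55, 4.71%, 4.69% and 5.05% in CT_102, and 2.93%, 2.69% and 3.22% in CT_55. The 3 line 102 libraries lay above the 3 line 55 libraries at either temperature, and CT_102 lay above LT_102. The means were 3.80 ± 0.396% in LT_102, 2.95 ± 0.171% in LT_55, 4.82 ± 0.199% in CT_102 and 2.95 ± 0.264% in CT_55 (SD, n = 3 each).

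**Figure D1:**
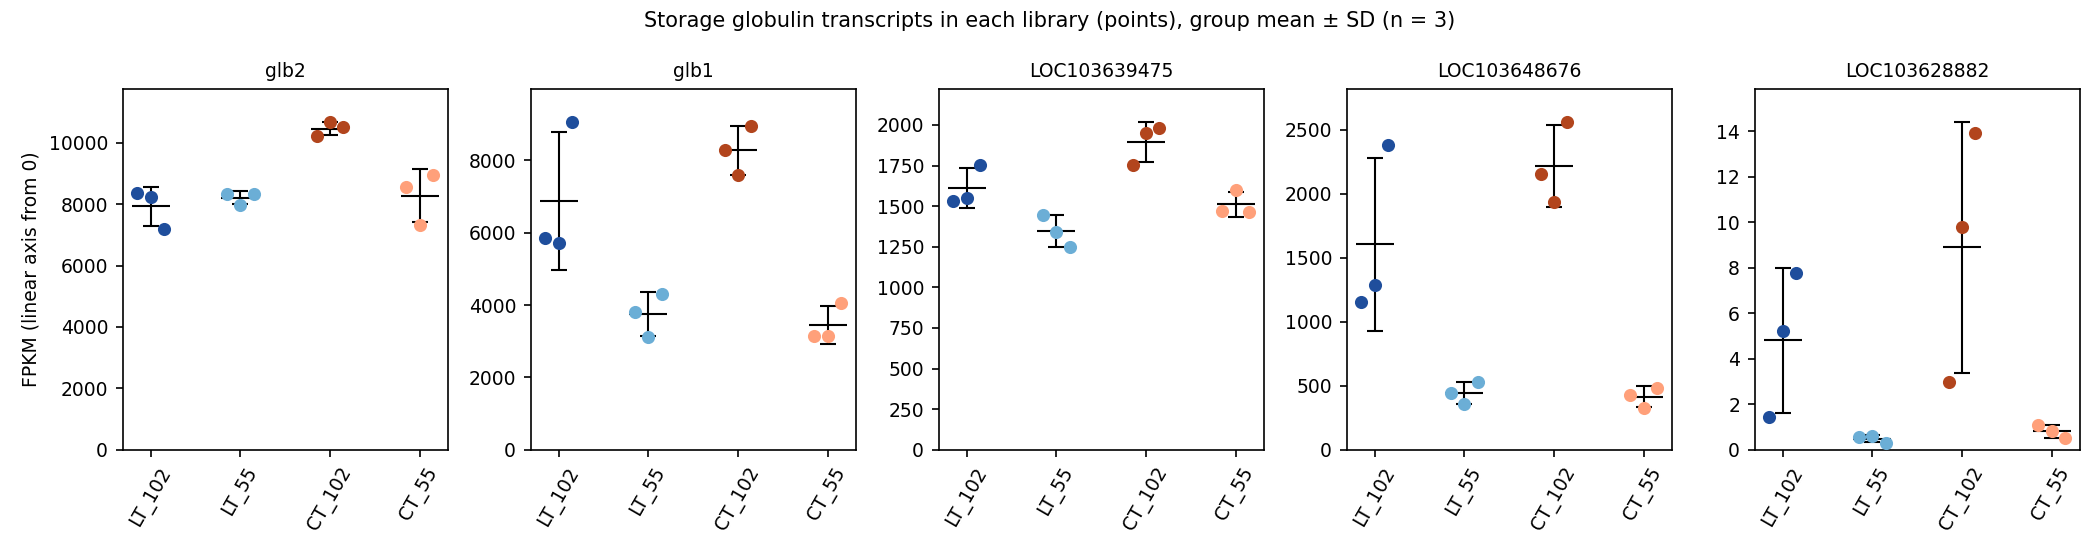
FPKM of the 5 tested genes in each library (points, linear axes that start at 0 and differ between panels), with the group mean and SD (lines, n = 3 libraries) for LT_102, LT_55, CT_102 and CT_55. The 3 genes of the globulin-1 kind (glb1, LOC103648676 and LOC103628882) lie higher in line 102 at both temperatures, with 1 LT_102 library at 9068 FPKM of glb1 against 5848 and 5721 in the others.

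The most abundant member, glb2, codes for the smaller of the main embryo globulins. It measured 8369, 8238 and 7196 FPKM in LT_102, 8345, 7973 and 8329 in LT_55, 10233, 10666 and 10510 in CT_102, and 8563, 7327 and 8966 in CT_55. The CT_102 libraries stood above all others, while LT_102, LT_55 and CT_55 overlapped. At 10 °C the line difference of glb2 was -0.10 on the log2 scale (SE 0.089, 95% interval -0.29 to 0.096, edgeR quasi-likelihood test, Benjamini-Hochberg adjusted p = 0.359). At 25 °C it was 0.29 (SE 0.089, 95% interval 0.096 to 0.48, edgeR adjusted p = 0.0137), which is under the 1.5-fold threshold of the study, so glb2 was not called in either line comparison.

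The glb1 gene codes for the most studied embryo vicilin, known in maize from several size alleles and from null alleles. Which allele each line carries was not tested. The glb1 gene measured 5848, 5721 and 9068 FPKM in LT_102 and 3820, 3110 and 4308 in LT_55. In CT_102 it measured 8281, 7606 and 8965 FPKM, and in CT_55 3137, 3146 and 4062. The line 102 libraries did not overlap the line 55 libraries at either temperature, and LT_102 replicate 3 stood apart from the other LT_102 libraries, slightly above the highest CT_102 library. Transcripts of glb1 were 1.78-fold higher in LT_102 than in LT_55 (log2 0.83, SE 0.19, 95% interval 0.43 to 1.24, edgeR adjusted p = 0.00188) and 2.32-fold higher in CT_102 than in CT_55 (log2 1.22, SE 0.19, 95% interval 0.81 to 1.62, edgeR adjusted p = 0.000122). Without LT_102 replicate 3 the difference at 10 °C was 0.57 with an edgeR adjusted p of 0.00706, just under the fold threshold, and the call was lost.

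LOC103648676, a globulin-1 S allele-like gene, showed the larger line difference of the 2 abundant globulin-1 genes. It measured 1151, 1284 and 2384 FPKM in LT_102 and 442, 359 and 527 in LT_55. In CT_102 it measured 2153, 1936 and 2564 FPKM, and in CT_55 428, 325 and 486. Again no line 102 library came near the line 55 range, and LT_102 replicate 3 was the high library of its group. The gene was 3.52-fold higher in LT_102 than in LT_55 (log2 1.81, SE 0.27, edgeR adjusted p = 7.35e-05) and 5.20-fold higher in CT_102 than in CT_55 (log2 2.38, SE 0.27, edgeR adjusted p = 9.62e-06). The span of LOC103648676 overlaps LOC100280362, a gene described as a hydrolase, and whether counting used strand is not given in the sources used here. LOC100280362 had 4, 4 and 11 counts in LT_102, 177, 258 and 262 in LT_55, 24, 0 and 0 in CT_102, and 291, 241 and 195 in CT_55. The part of this overlap in the LOC103648676 values was not tested.

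LOC103628882, the third globulin-1 gene by description, has a model that spans 991 bases, against 2414 for glb1. It was expressed at a low level, with 1.44, 5.23 and 7.76 FPKM in LT_102 (61, 270 and 399 counts). In LT_55 it had 0.574, 0.589 and 0.291 FPKM (30, 34 and 18 counts). In CT_102 it had 2.98, 9.79 and 13.9 FPKM (152, 482 and 695 counts), and in CT_55 1.08, 0.812 and 0.525 FPKM (43, 42 and 26 counts). The groups of the 2 lines did not overlap, but replicates of line 102 differed among themselves by several-fold, with replicate 1 the lowest in LT_102 and in CT_102. Its coefficient of variation was 66.1% in LT_102 and 62.1% in CT_102. The gene was 9.54-fold higher in LT_102 than in LT_55 (log2 3.25, SE 0.67, edgeR adjusted p = 0.00107) and 10.7-fold higher in CT_102 than in CT_55 (log2 3.42, SE 0.66, edgeR adjusted p = 0.000718). These folds depend on how low values are treated: on log2(FPKM + 1) with limma the differences were 1.79 at 10 °C and 2.27 at 25 °C, still called. The part of reads shared with the far more abundant glb1 in these values was not tested.

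Since the division of reads between the 3 globulin-1 genes is uncertain, their sum was also taken. It made up 1.38%, 1.38% and 2.25% of all counts in LT_102, 0.844%, 0.687% and 0.957% in LT_55, 2.05%, 1.88% and 2.27% in CT_102, and 0.704%, 0.688% and 0.900% in CT_55. The sum separated the lines at both temperatures, as it had to, since each of the 3 genes did so alone. It was mostly glb1, which took 1.16% of all counts in LT_102 replicate 1. It therefore does not bear on LOC103648676 or LOC103628882 taken alone. In proportion, LOC103648676 reached 19.7%, 22.4% and 26.3% of the glb1 FPKM in LT_102 and 11.6%, 11.5% and 12.2% in LT_55, against 26.0%, 25.5% and 28.6% in CT_102 and 13.6%, 10.3% and 11.96% in CT_55. The ratio of LOC103648676 to glb1 was higher in line 102, without overlap between the lines. It restates the larger line difference of LOC103648676 and depends on the uncertain division of reads. The ratio of glb1 to glb2 was 0.699, 0.694 and 1.26 in LT_102, 0.458, 0.390 and 0.517 in LT_55, 0.809, 0.713 and 0.853 in CT_102, and 0.366, 0.429 and 0.453 in CT_55. LT_102 replicate 3 was the only library in which glb1 exceeded glb2.

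**Figure D2:**
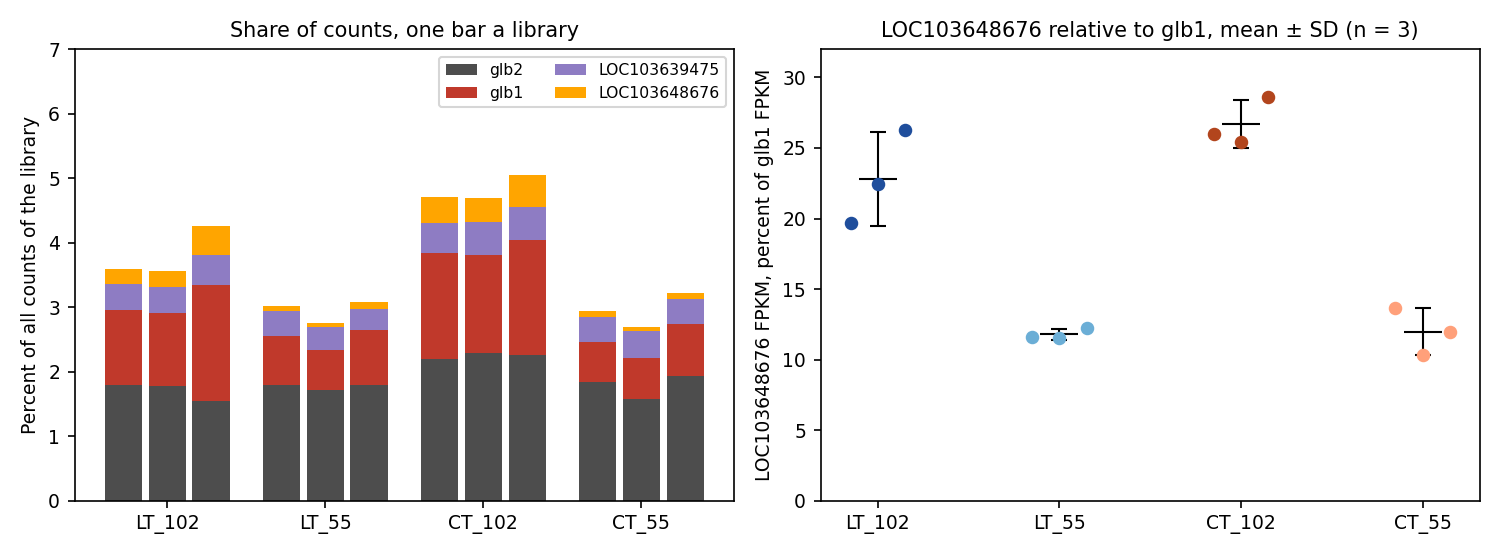
Left, percent of all counts of a library (1 bar each, from replicate 1 to 3 within a group) taken by glb2, glb1, LOC103639475 and LOC103648676. Right, LOC103648676 as percent of the glb1 FPKM in each library (points) with mean and SD (n = 3): line 102 averaged 22.8% at 10 °C and 26.7% at 25 °C, line 55 averaged 11.8% at 10 °C and 11.98% at 25 °C.

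The vicilin-like gene LOC103639475 was expressed at a level between those of glb1 and LOC103628882, with narrow groups. It measured 1533, 1550 and 1751 FPKM in LT_102, 1448, 1340 and 1249 in LT_55, 1753, 1953 and 1980 in CT_102, and 1471, 1602 and 1466 in CT_55. The line 102 libraries were the higher ones at both temperatures without overlap, and each LT group lay below the CT group of the same line. The temperature groups nearly touched, at 1751 against 1753 FPKM in line 102 and 1448 against 1466 in line 55. The line difference was small: 0.22 at 10 °C (log2, SE 0.091, 95% interval 0.017 to 0.41, edgeR adjusted p = 0.0553) and 0.28 at 25 °C (SE 0.091, 95% interval 0.080 to 0.48, edgeR adjusted p = 0.0190), both under the fold threshold. LOC103636310, the aspartic protease-like gene, was at the limit of detection, with 4, 0 and 0 counts in LT_102, 0 in each LT_55 library, 4, 11 and 0 in CT_102, and 0, 0 and 4 in CT_55.

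In the LT_102vsLT_55 comparison group, 3 of the 5 tested members were thus upregulated in line 102 and none was downregulated. Of all tested genes 51.1% were called in this comparison (at least 1.5-fold and unadjusted p under 0.05, the thresholds of the study), with 25.1% higher and 26.1% lower in line 102. In the CT_102vsCT_55 comparison group the same 3 genes, glb1, LOC103648676 and LOC103628882, were upregulated and none was downregulated. Here the background was 48.1% called, with 24.3% higher and 23.8% lower. The same 3 members were also called in both comparisons with an edgeR adjusted p under 0.05 in place of the unadjusted one, where the background was 49.8% at 10 °C and 46.6% at 25 °C. With 3 of 5 genes, the share of members called was near the background, so the count alone sets the members apart in neither comparison. The median log2 difference of the 5 members was 0.83 at 10 °C and 1.22 at 25 °C, against 0.0030 and 0.010 over all tested genes, a value that the scaling holds near 0. At both temperatures the member median is the glb1 value itself, so it shows no shift of the members as a group. LOC103648676 and LOC103628882 lay above it. The differences of glb2 (-0.10 and 0.29) and LOC103639475 (0.22 and 0.28) lay below it. The median size of the difference, whatever its direction, was 0.70 over all tested genes at 10 °C and 0.64 at 25 °C, so glb1 at 10 °C differed little more than a typical gene. Non-overlap was frequent as well, at 69.0% of tested genes in LT_102vsLT_55 and 66.6% in CT_102vsCT_55. An exact two-sided permutation test of 3 against 3 libraries cannot go below p = 0.1. It gave this value for each of the 5 members at 25 °C and for all but glb2 (exact p = 0.7) at 10 °C.

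No member was called for temperature. In LT_102vsCT_102, 0 of 5 members passed an adjusted p of 0.05 by edgeR or limma, 1 (glb2) passed by DESeq2, and 2 (glb2 and LOC103639475) had an unadjusted edgeR p under 0.05. The background was 0.679% of tested genes called (0.0305% higher and 0.648% lower in LT_102), and 13% at an unadjusted p under 0.05. The nearest to a call was glb2, with 7934 ± 643 FPKM in LT_102 and 10470 ± 219 in CT_102 (SD, n = 3 each), and without overlap. Its log2 difference was -0.41 (SE 0.089, 95% interval -0.60 to -0.21, unadjusted p = 0.000621, edgeR adjusted p = 0.0615). This p lay close to the threshold and crossed it in several alternative analyses, with a range of 0.00125 to 0.214. For LOC103639475, also without overlap, the difference was -0.24 (95% interval -0.44 to -0.043, edgeR adjusted p = 0.274). The groups overlapped for glb1 (-0.27, 95% interval -0.68 to 0.13), LOC103648676 (-0.47, 95% interval -1.03 to 0.091) and LOC103628882 (-0.89, 95% interval -2.17 to 0.38). LT_102 replicate 3 lay in or slightly above the CT_102 range for glb1 and LOC103648676, while the other LT_102 libraries lay below it. Of all tested genes, 26.1% did not overlap between LT_102 and CT_102.

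In LT_55vsCT_55, 0 of 5 members were called by edgeR, limma or DESeq2, and 0 had an unadjusted edgeR p under 0.05. The background was 0.0522% called (0.0087% higher and 0.0435% lower in LT_55), and 4.43% at an unadjusted p under 0.05. The log2 differences were -0.021 for glb2 (95% interval -0.21 to 0.17), 0.11 for glb1 (-0.29 to 0.52), -0.18 for LOC103639475 (-0.38 to 0.020), 0.094 for LOC103648676 (-0.47 to 0.65) and -0.72 for LOC103628882 (-2.22 to 0.77). Only LOC103639475 had groups that did not overlap, as did 7.23% of tested genes. The intervals of glb2 and LOC103639475 were the narrow ones, and those of the globulin-1 genes were wider.

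**Figure D3:**
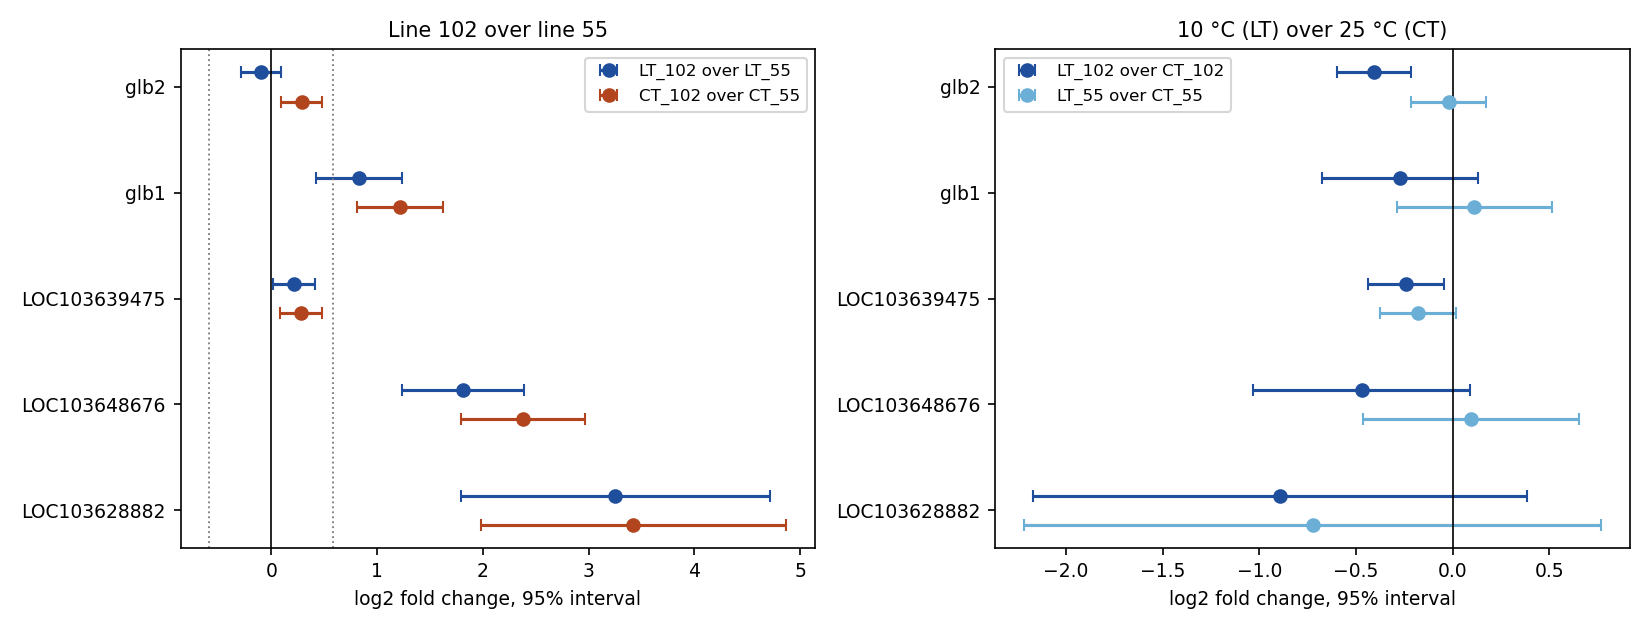
Log2 fold change (points) and 95% interval (bars) of the 5 tested genes by edgeR, for line 102 over line 55 (left, dotted lines at the 1.5-fold threshold) and for 10 °C over 25 °C (right). The 3 globulin-1 genes lie right of the threshold at both temperatures, and the temperature intervals that do not reach 0, before adjustment over all genes, are those of glb2 and LOC103639475 in line 102.

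Whether the temperature difference itself differed between the lines was tested as an interaction. For glb2 the interaction was -0.39 on the log2 scale (SE 0.13, 95% interval -0.66 to -0.11, unadjusted p = 0.00954, edgeR adjusted p = 0.611). It was -0.39 for glb1 (95% interval -0.96 to 0.18, edgeR adjusted p = 0.872) and -0.56 for LOC103648676 (95% interval -1.36 to 0.23, edgeR adjusted p = 0.858). No difference between the lines in their temperature response was therefore shown for any member: 0 of 5 were called by edgeR, limma or DESeq2, and 1 (glb2) had an unadjusted p under 0.05. The background was 0.00435% called, and 6.33% at an unadjusted p under 0.05.

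LT_102 replicate 3 held the highest glb1 and LOC103648676 of its group and the lowest glb2. In that library 3.23% of tested genes were at least 1.5-fold above both other LT_102 libraries. The same share ranged over 2.26% to 6.58% in the 12 libraries, each set against the others of its group, so LT_102 replicate 3 lay inside the range of the others.

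The abundance patterns of glb1 and LOC103648676 ran closely together over the 12 libraries, with a Pearson correlation of log2(CPM + 1) of 0.989 (0.986 within the 6 libraries of line 102 and 0.869 within the 6 of line 55). That of glb1 and glb2 was 0.482 (0.252 within line 102 and 0.555 within line 55). LOC103628882, which had few counts in line 55, correlated with glb1 at 0.852 (0.606 within line 102 and -0.812 within line 55). With LOC103648676 it correlated at 0.890 (0.697 within line 102 and -0.563 within line 55). These correlations are descriptions over libraries that share 2 lines and 2 temperatures, and the globulin-1 genes may share reads. Outside the list, the genes most like glb1 were LOC100273407 (r = 0.981), LOC111589261 (r = 0.979) and LOC107436075 (r = 0.974). LOC111589261, an uncharacterized gene, had 406, 438 and 823 FPKM in LT_102, 70.5, 45.1 and 131 in LT_55, 582, 563 and 740 in CT_102, and 56.5, 55.7 and 84.7 in CT_55. It shared with glb1 the high value in LT_102 replicate 3. This follows in part from the correlation by which it was picked, so no test is given.

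The genes most like glb2 were pco065682a (r = 0.924), LOC103631724, described as Krueppel-like factor 12 (r = 0.882), and cl7681_1a, described as high affinity cationic amino acid transporter 1 (r = 0.867). Within line 102 their correlations with glb2 were 0.944, 0.930 and 0.884, and within line 55 they were 0.798, 0.763 and 0.827. The transporter cl7681_1a had 16.6, 16.1 and 17.9 FPKM in LT_102 and 30.1, 29.9 and 26.1 in CT_102. Its LT_102 libraries lay below its CT_102 libraries, as did those of glb2, the pattern by which it was picked, so no test is given.

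The other seed storage proteins gave a divided picture between the lines. Of 33 listed genes 9 were tested. Some of these, zp15 and cl4825_1 among them, passed the expression filter only through the line where they were high. At 10 °C 4 were higher and 5 lower in line 102, and at 25 °C 3 were higher and 5 lower. The 5 lower genes were all zeins, the prolamins of the endosperm, at levels far under those of the globulins. The 15 kDa beta zein zp15 averaged 0.317 ± 0.0304 FPKM in LT_102 and 6.15 ± 2.19 in LT_55 (log2 -4.30, edgeR adjusted p = 7.01e-07), and 0.186 ± 0.0840 in CT_102 and 4.90 ± 1.55 in CT_55 (log2 -4.70, edgeR adjusted p = 5.03e-07, SD, n = 3 each). The 16 kDa gamma zein zp16 differed by -2.26 at 10 °C and -3.35 at 25 °C, and the 19 kDa alpha zein LOC606401 by -2.43 and -5.29, each called. The legumins, hexameric storage globulins of the other main class, went the other way: LOC100283693 averaged 3.14 ± 0.441 FPKM in LT_102 and 1.58 ± 0.677 in LT_55, and 3.96 ± 0.285 in CT_102 and 1.75 ± 0.148 in CT_55 (SD, n = 3 each). It was called higher in line 102 at both temperatures, at 0.94 and 1.13 on the log2 scale. The remaining higher genes, named after their values were seen, were cl2-1 (0.82 at 10 °C and 1.33 at 25 °C), leg1 (1.22 at 10 °C; 0.82 at 25 °C was not called) and cl4825_1, a gene of the 2S albumin superfamily that had no count in the line 55 libraries. None of the 9 was called for temperature in either line or for the interaction by edgeR or limma. DESeq2 called 1 in LT_102vsCT_102 and 0 in the others, and the counts at an unadjusted edgeR p under 0.05 were 3 in LT_102vsCT_102, 0 in LT_55vsCT_55 and 1 for the interaction.

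Of 19 listed regulators of storage protein genes 14 were tested, with 2 higher and 2 lower in line 102 at 10 °C and 3 higher and 2 lower at 25 °C, beside backgrounds of 51.1% and 48.1% called. The list was made from descriptions and also holds genes that are not transcriptional regulators, such as ABI3-interacting proteins and a suppressor of abi3. The gene for VP1, vp1, averaged 276 ± 21.8 FPKM in LT_102 and 236 ± 28.2 in LT_55 (log2 0.18, SE 0.11, edgeR adjusted p = 0.160), and 258 ± 16.1 in CT_102 and 249 ± 24.9 in CT_55 (log2 0.0030, SE 0.11, edgeR adjusted p = 0.984). It was not called in either comparison. LOC103637982, described as the chromatin remodelling factor PICKLE, which in Arabidopsis represses embryo genes after germination, differed by 0.41 at 10 °C and 0.06 at 25 °C and was not called. Of the 2 tested genes described as ABI3-interacting protein 2, the more abundant LOC100285539 differed by -0.11 and -0.28 and was not called. LOC100279474, named after its values were seen, was downregulated in line 102 by 0.82 at 10 °C and 0.80 at 25 °C on the log2 scale (edgeR adjusted p = 2.12e-06 and 2.92e-06). The B3 domain gene pco092640, of the VAL kind that in Arabidopsis represses seed genes, averaged 206 ± 2.20 FPKM in LT_102 and 124 ± 17.4 in LT_55 and was upregulated in line 102 at both temperatures, by 0.68 and 0.73 on the log2 scale. The other called genes, named after their values were seen, went both ways. LOC100502540 (ABSCISIC ACID-INSENSITIVE 5) differed by 0.40 at 10 °C, not called, and by 1.23 at 25 °C, called. Its interaction was -0.84 (edgeR adjusted p = 0.406). LOC100381762 (VAL2) was higher in line 102 by 1.95 and 1.98. LOC100284582 (ABSCISIC ACID-INSENSITIVE 5-like protein 5) was lower, at -1.33 and -1.55. No gene of the list was called for temperature or the interaction by edgeR or limma. DESeq2 called 1 in LT_102vsCT_102 and 1 for the interaction, and the counts at an unadjusted edgeR p under 0.05 were 3 in LT_102vsCT_102, 0 in LT_55vsCT_55 and 2 for the interaction.

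**Figure D4:**
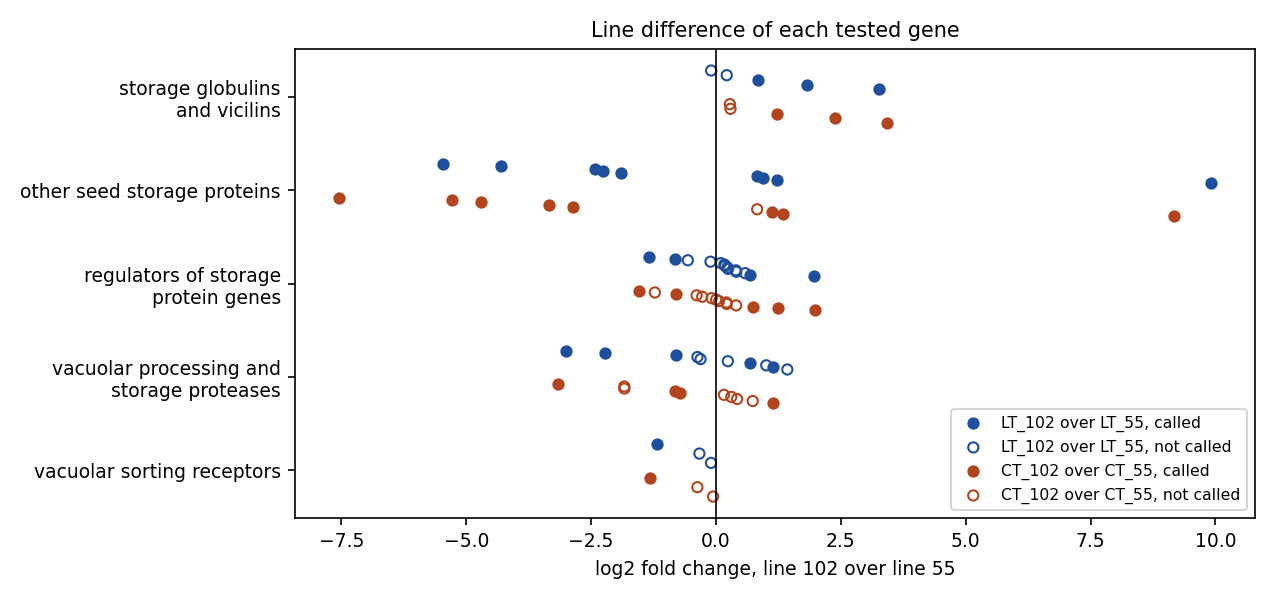
Log2 fold change of line 102 over line 55 for each tested gene of 5 lists, at 10 °C (blue) and 25 °C (red). Filled points were called (at least 1.5-fold and unadjusted p under 0.05), open points were not. The zeins form the group left of 0 among the other seed storage proteins, and the points near 10 are a gene with no count in line 55, whose fitted value has no exact size.

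Proteases that mature or degrade storage proteins in the vacuole differed between the lines in both directions. Of 13 listed genes 10 were tested, with 2 higher and 3 lower in line 102 at 10 °C and 1 higher and 3 lower at 25 °C. Vacuolar processing enzyme 1 (vpe1), an asparaginyl endopeptidase that cuts storage protein precursors, averaged 1244 ± 27.6 FPKM in LT_102 and 2103 ± 73.2 in LT_55 (log2 -0.80, SE 0.08, edgeR adjusted p = 1.76e-06), and 1244 ± 84.1 in CT_102 and 2116 ± 36.5 in CT_55 (log2 -0.81, SE 0.08, edgeR adjusted p = 1.70e-06). It was downregulated in line 102 at both temperatures. Of the 6 tested genes described as oryzasin-1, an aspartic protease named after a rice seed enzyme, the 2 most abundant differed in opposite directions. LOC100282399 averaged 665 FPKM in LT_102 against 291 in LT_55 and 659 in CT_102 against 291 in CT_55, and was called higher in line 102 at both temperatures. LOC100284362 averaged 43.0 FPKM in LT_102 against 335 in LT_55 and 38.5 in CT_102 against 335 in CT_55, and was called lower at both. Of the remaining 4, all averaging under 21 FPKM in each group, LOC103631003 was called lower at 25 °C (-0.73, edgeR adjusted p = 0.00214) and the others were not called; it is named after its values were seen. The aleurain-like gene LOC103647465 differed by 0.69 at 10 °C, which was called, and by 0.42 at 25 °C, which was not. For temperature 0 of 10 were called by edgeR, limma or DESeq2 in either line, and 0 had an unadjusted p under 0.05. For the interaction 0 were called by the same tools and 1 had an unadjusted p under 0.05.

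Vacuolar sorting receptors, which carry storage proteins to the vacuole, were measured for 3 of 4 listed genes. LOC103634617 averaged 72.6 ± 4.24 FPKM in LT_102 and 161 ± 26.9 in LT_55, and 66.03 ± 9.11 in CT_102 and 160 ± 17.6 in CT_55 (SD, n = 3 each), and was downregulated in line 102 by 1.19 and 1.32 on the log2 scale (edgeR adjusted p = 1.12e-05 and 5.05e-06). The more abundant LOC103647159 (-0.10 at 10 °C and -0.06 at 25 °C) and vacs1 (-0.33 and -0.37) were not called. No receptor was called for temperature or the interaction by edgeR, limma or DESeq2, and 0 had an unadjusted p under 0.05. The tested genes called at 10 °C were thus 9 of 9 other storage proteins, 4 of 14 regulators, 5 of 10 proteases and 1 of 3 receptors, beside a background of 51.1%. At 25 °C they were 8 of 9, 5 of 14, 4 of 10 and 1 of 3, beside a background of 48.1%. Whether a list differed from the background was not tested. For the other storage proteins the calls and medians follow in part from the expression filter. Some of these genes passed it only through the line where they were high, so a line difference was likely beforehand. The median log2 differences of the lists at 10 °C were -1.91, 0.21, -0.04 and -0.33 in the same order, and at 25 °C -2.86, 0.03, -0.29 and -0.37.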

How the data were processed

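The authors deposited a table with read counts and FPKM values per gene for 12 poly(A) libraries, 3 for each of 4 groups. Their notes name HISAT, StringTie, edgeR and the B73 RefGen_v4 genome. The counting program, its strand setting and its handling of reads with several matches are not given in the sources used here. Of the counts from 1 to 20 in the deposited table, 42.6% were multiples of 4, so low counts are not plain read numbers and their precision is uncertain. All value columns were used through their labels (0 columns had no sample), and the authors' comparison columns, which hold fold changes and p-values, were not used.

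Counts were fitted with edgeR 4.0.16 in R 4.3.3 (TMM scaling, quasi-likelihood test, 1 model over 4 groups) for all genes with FPKM of at least 0.5 in 3 libraries. Line differences were called at 1.5-fold and an unadjusted p under 0.05, the thresholds of the study, and temperature differences and the interaction at a Benjamini-Hochberg adjusted p under 0.05. Alternatives were limma 3.58.1 on log2(FPKM + 0.1) or log2(FPKM + 1), DESeq2 1.42.0, other scalings, filters and thresholds, a replicate block, fits of 2 groups and leaving out each library. Python 3.11.15 with pandas 2.3.3 made the tables, and matplotlib 3.10.9 drew the figures.

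Members were found by description. The text names each member and up to 4 genes of highest mean FPKM from every other list, plus the 3 genes most correlated with glb2 and with glb1. The members and lists were chosen with earlier results of these data known. Replicates are biological by the study's account.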

Additional observations from a re-analysis of the deposited data

How the results depend on the processing

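The number of members called in LT_102vsLT_55 stayed at 3 except at a 2-fold threshold and when 1 library was left out (2 to 3 members): glb1 was lost without LT_102 replicate 3 (0.57) and at the 2-fold threshold (0.83). In CT_102vsCT_55 it was 3 in every alternative and leave-one-out run. In LT_102vsCT_102, where no member was called, 1 (glb2) was called without the filter (adjusted p = 0.0424), with scaling that left out the members (0.0473), with DESeq2 (0.00125), in a fit of the 2 groups alone (0.0210) and without LT_55 replicate 3 (0.0436), so that leaving out libraries gave 0 to 1, and 2 at an unadjusted p. The cause was not tested. For the interaction 1 was called at an unadjusted p. Leaving out libraries turned the sign of some uncalled differences: in LT_55vsCT_55 glb2 ranged over -0.11 to 0.031, glb1 over -0.018 to 0.24 and LOC103648676 over -0.069 to 0.22, and the interaction of LOC103628882 ranged over -0.70 to 0.33. Of 605 alternative values for single members, 585 kept their direction and side of the threshold.

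Replicate numbers were not shown to pair the libraries. Deviations of log2 CPM from the group mean were correlated between libraries of different groups. The 18 same-numbered pairs had a mean correlation of 0.0334 (-0.0522 to 0.289), against -0.0165 for pairs with different numbers. By this measure 5 of 12 libraries were closest to their own number. With the replicate block 3, 3, 0, 0 and 0 members were called in the 5 comparisons, as without it, and glb2 in LT_102vsCT_102 had an edgeR adjusted p of 0.0646. Over all genes the block gave 318, 31 and 3 calls for LT_102vsCT_102, LT_55vsCT_55 and the interaction, DESeq2 gave 870, 150 and 130, and the edgeR fit without block gave 156, 12 and 1.

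With 3 libraries per group and 44028579 to 67873652 counts a library, low counts limit LOC103628882 and LOC103636310.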

Other observations

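A further 2 genes with globulin in their description lay outside the list and are named here after their values were seen. LOC103630342, described as basic 7S globulin and annotated with aspartic-type endopeptidase activity, had 111, 115 and 106 FPKM in LT_102, 22.6, 24.4 and 16.3 in LT_55, 153, 135 and 125 in CT_102, and 29.0, 25.7 and 21.4 in CT_55. The lines did not overlap, and it was higher in line 102 by 2.34 on the log2 scale at 10 °C (SE 0.15, edgeR adjusted p = 4.83e-08) and by 2.39 at 25 °C (edgeR adjusted p = 4.51e-08). The glb3 gene, described as globulin 3 precursor, was near the limit of detection, with 16, 50 and 13 counts in LT_102, 52, 96 and 72 in LT_55, 18, 39 and 30 in CT_102, and 45, 56 and 19 in CT_55. Its log2 difference was -1.32 at 10 °C (SE 0.57, edgeR unadjusted p = 0.0382, adjusted p = 0.0591), which was called lower in line 102 by the thresholds of the study but not by an adjusted p. At 25 °C it was -0.62 (edgeR adjusted p = 0.362) and was not called. The glb3 gene passed the expression filter only through the line where it was higher, so a difference in this direction was likely beforehand. In line 102 only LT_102 replicate 2, at 0.528 FPKM, reached the filter level of 0.5 FPKM.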
